A study of Mus musculus with 4 samples.

Results

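A set of 10 genes of cortical neurogenesis is described here in 3 RNA sequencing libraries: Neurog2, Neurog1, Gadd45g, Btg2, Insm1, Eomes, Rgs16, Sstr2, Nhlh1 and Neurod1. They were picked by name as genes of the proneural programme and of intermediate progenitors, and each matched 1 of the 19968 genes that both deposited tables list, so 10 of 10 members were measured. RNA was taken from the dissected cerebral cortex of embryos of the mouse strain C57BL/6 on embryonic day 15. The Prdm16cKO group carries a conditional deletion of Prdm16, a zinc-finger transcriptional regulator of radial glia, and the Prdm16fl/fl group carries the floxed alleles without a named deletion. The sources used here name neither the Cre line and its cell types nor the deleted exon. The labels list 2 samples in each group, 1 title of each group holds the unexplained word Blood, and the series' design text speaks of triplicates. Column names of the tables give 2 libraries of the knockout group, called cKO 1 and cKO 2 as names only, and 1 library of the control group, called floxed. Which labelled sample each of them is cannot be read from the names, the other floxed sample was not analysed here, and nothing says that libraries came from separate embryos.

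In the embryonic cortex, radial glia divide at the ventricle and give rise either directly to neurons or to intermediate progenitors, which move to the subventricular zone, divide again and yield pairs of neurons. Proneural basic helix-loop-helix (bHLH) factors drive this step by binding E-box DNA sequences together with E proteins, and they switch on a cascade in which Neurogenins come first, Insm1 and Eomes mark the intermediate progenitor, and NeuroD and Nhlh factors mark the cell as it becomes a neuron. The members are given below in that order.

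The upstream sequences of 4 members are shown because 3 of these genes, Gadd45g, Nhlh1 and Neurod1, were the members above floxed in both cKO libraries beyond counting error, while Eomes defines the intermediate progenitor and was below it. They are from RefSeq (GRCm38.p6), are read 5′ to 3′ on the gene's strand, end just before the annotated start, and have matches to CANNTG, the E-box core, in capitals.
Gadd45g, chr13:51846425-51846674, plus strand: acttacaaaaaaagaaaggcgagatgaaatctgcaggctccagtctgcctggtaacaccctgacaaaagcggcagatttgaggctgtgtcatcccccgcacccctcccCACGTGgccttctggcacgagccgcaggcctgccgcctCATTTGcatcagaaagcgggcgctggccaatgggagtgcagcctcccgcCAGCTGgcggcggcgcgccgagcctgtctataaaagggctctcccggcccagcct
Nhlh1, chr1:172057597-172057846, minus strand: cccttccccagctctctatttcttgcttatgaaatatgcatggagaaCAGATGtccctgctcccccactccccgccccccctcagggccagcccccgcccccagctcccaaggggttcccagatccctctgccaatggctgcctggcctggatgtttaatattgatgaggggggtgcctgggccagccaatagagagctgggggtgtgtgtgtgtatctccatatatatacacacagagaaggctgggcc
Neurod1, chr2:79456752-79456886, minus strand: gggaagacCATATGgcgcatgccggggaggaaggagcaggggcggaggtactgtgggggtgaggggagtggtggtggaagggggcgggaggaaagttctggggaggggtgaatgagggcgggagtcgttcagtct
Eomes, chr9:118477939-118478188, plus strand: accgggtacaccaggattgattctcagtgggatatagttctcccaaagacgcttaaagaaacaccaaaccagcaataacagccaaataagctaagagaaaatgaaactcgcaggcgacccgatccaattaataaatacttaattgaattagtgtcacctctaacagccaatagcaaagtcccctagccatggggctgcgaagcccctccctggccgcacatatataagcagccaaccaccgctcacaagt

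The search took every overlapping match to CANNTG, which reads as the same pattern on both strands, in the 250 bases before the RefSeq start. For Neurod1 the 115 bases nearest that start are not printed because GENCODE M21 places them in the first exon, and they held no further match. Of 9 members found in the RefSeq table (Insm1 was the other one), 3 held a match and 6 held none, where 66.2% of 32851 windows of this length held one. The Gadd45g window had 3 matches. The one with the core CACGTG began 142 bases before the start. The next, at 104 bases, had CATTTG in that place. The nearest lay 55 bases before the start and read CAGCTG, a core that 13% of all windows held. Nhlh1 had CAGATG at 203 bases, a core that together with its reverse complement CATCTG was in 14.4% of all windows. Neurod1 had CATATG at 242 bases, a core found in 3.46% of windows. The members with a match were those higher in both cKO libraries. This is a description of 9 short windows with no test, and a match is not a binding site.

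Sequence shared by related genes was also looked at, since Neurog1 and Neurog2 or Neurod1 and Neurod2 could exchange reads. The longest identical runs between member transcripts and those of their relatives (GENCODE M21) are shown for 3 pairs, each lying in coding sequence. Coding runs of 24 bases for Insm1 and Insm2 and for Rgs16 and Rgs8, and of 22 bases for Btg2 and Btg3, are not shown. Read length, and how reads that match both genes were counted, are not named in the sources used here.
Neurog2 and Neurog1, 26 bases: cgcgagcgcaaccgcatgcacaacct
Neurod1 and Neurod2, 25 bases: tggccaagaactacatctgggctct
Nhlh1 and Nhlh2, 20 bases: cgcgccacggccaagtaccg

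Totals over genes were 19514882 counts for cKO 1 and 18579178 for cKO 2, against 17839662 for floxed, and levels are given in CPM, the count scaled to these totals. Prdm16 itself had 34.6 and 24.1 CPM in cKO 1 and cKO 2, against 30.2 CPM in floxed, with a ratio to floxed of 1.15 (95% exact interval 1.02 to 1.29) in cKO 1 and 0.798 (0.702 to 0.906) in cKO 2 (edgeR log2 fold -0.03, SE 0.25, adjusted p = 1). Its total was thus higher than floxed in cKO 1, against that library's label, and lower in cKO 2, both beyond counting error. With the deleted exon unnamed, this total checks the labels only in part, and cKO 1 and cKO 2 stand throughout for the libraries labelled cKO. Of the genes that mark the cortex, Fezf2 had 256 and 293 CPM in cKO 1 and cKO 2, against 214 CPM in floxed. The cKO libraries stood apart from each other in genes of meninges and fibroblasts, whose summed level over 10 genes was 1310 CPM in cKO 1 and 89.0 CPM in cKO 2, against 837 CPM in floxed, and in endothelial genes, with 343 and 175 CPM against 291 CPM. The erythroid list summed to 1375 and 1090 CPM, against 1479 CPM in floxed. Both deposited tables hold 7 of the 8 listed erythroid genes. No gene of these lists that both tables hold was at 0 in any library. Each result below is therefore given for each cKO library on its own.

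**Figure D1:**
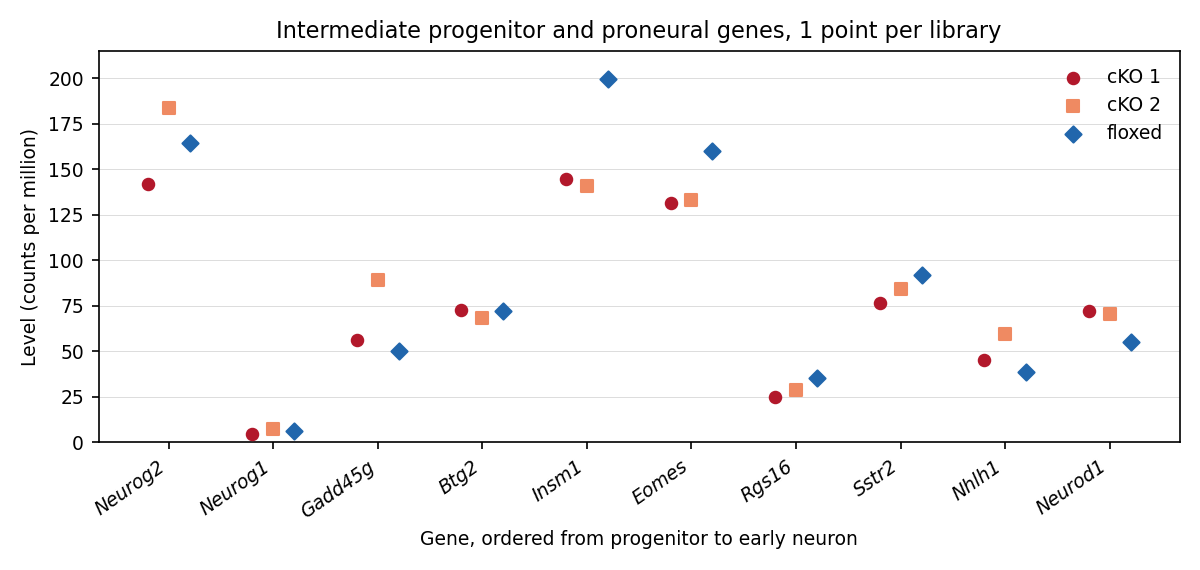
Level of each gene in CPM (count scaled to the library total), with 1 point for each of cKO 1, cKO 2 and floxed and genes ordered from progenitor to early neuron. Insm1, Eomes, Rgs16 and Sstr2 were lower in both cKO libraries than in floxed, Gadd45g, Nhlh1 and Neurod1 lowest in floxed, and floxed lay between the cKO libraries for Neurog2, Neurog1 and Btg2.

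The 10 genes lay on both sides of floxed. Insm1, Eomes, Rgs16 and Sstr2 (4 of 10) were lower than floxed in both cKO libraries beyond counting error, and 3, Gadd45g, Nhlh1 and Neurod1, were higher in both. Neurog2 was lower in cKO 1 and higher in cKO 2 (so were 2.1% of all genes tested and 4.8% of those of at least 30 CPM), Neurog1 was lower in cKO 1 alone, and Btg2 was within counting error in both. Beyond counting error means that the 95% exact (Clopper-Pearson) interval of the ratio of scaled counts, from the conditional binomial distribution, left out 1. In cKO 1 alone 3 members were higher and 6 lower, where 17.8% and 16% of all genes tested were, and 21.2% and 27.7% of those of at least 30 CPM. In cKO 2 alone 4 were higher and 4 lower, where 16.1% and 24.5% of all genes tested were, and 24.6% and 28.5% of those of at least 30 CPM. Such intervals compare libraries, not genotypes, and cover counting error only. Lower in both were 40% of members, against 7.52% of the 16725 genes tested and 13.2% of the 6750 tested genes with at least 30 CPM in floxed. Higher in both were 30% of members, against 5.16% and 7.45%. The members were chosen with earlier results of these data known, so these shares describe them and carry no test. The comparisons share the floxed library, and 0 of 10 members went past 2-fold in either. The share of all genes past 2-fold was not counted. Past a log2 fold of 1.2 in either library were 42 of the 6750 genes, so such folds were rare at this level.

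Across genotypes no member passed the test. The edgeR quasi-likelihood test with Benjamini-Hochberg adjustment over 16725 genes called 0 members and 0% of all genes at an adjusted p under 0.05, and every member had an adjusted p of 1. At an unadjusted p under 0.05 it had 2 members, Insm1 and Neurod1, and 1.3% of all genes. With 1 floxed library the fit has 1 residual degree of freedom, and the spread comes from the cKO libraries alone. DESeq2 also called 0 members, and 5 of all genes, with 1 member and 98 of all genes at an unadjusted p under 0.05. With limma-voom 0 members and 0 of all genes were called, with 2 members and 205 of all genes at an unadjusted p under 0.05. In bulk RNA, fewer cells of a type and less RNA per cell cannot be told apart.

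Neurog2 (ENSMUSG00000027967, chromosome 3, 127633135 to 127635631, plus strand, GRCm38) encodes the main proneural factor of the dorsal telencephalon and is switched on in radial glia about to produce a neuron or an intermediate progenitor. It had 142 and 183 CPM in cKO 1 and cKO 2, against 165 CPM in floxed. The floxed level lay between those of the cKO libraries, which differed from each other by a ratio of 1.29 (cKO 2 over cKO 1, 95% exact interval 1.23 to 1.36). Against floxed the ratio was 0.863 in cKO 1 (0.819 to 0.909) and 1.11 in cKO 2 (1.06 to 1.17), while edgeR fitted a log2 fold of 0.00 (SE 0.21).

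Neurog1 (ENSMUSG00000048904, chromosome 13, 56250505 to 56252163, minus strand), the close relative of Neurog2 with overlapping function, was the least abundant member. Its 87 and 134 counts in the cKO libraries, against 116 in floxed, came to 4.46 and 7.21 CPM against 6.50 CPM. Its libraries had the same order as those of Neurog2. The number of Neurog1 counts per Neurog2 count was 0.0314 in cKO 1 (exact interval 0.0251 to 0.0389) and 0.0393 in cKO 2 (0.0328 to 0.0467), against 0.0395 in floxed (0.0325 to 0.0476), with overlapping intervals, so no difference between the neurogenins was detectable at this depth.

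Gadd45g (ENSMUSG00000021453, chromosome 13, 51846678 to 51848468, plus strand) encodes a small stress-sensor and growth-arrest protein that is transiently high in cells leaving the progenitor state. It had 56.5 and 89.2 CPM in cKO 1 and cKO 2, against 50.4 CPM in floxed. Floxed was the lowest library and cKO 2 stood far above the others, with a ratio to floxed of 1.12 in cKO 1 (1.02 to 1.22) and 1.77 in cKO 2 (1.63 to 1.92). In cKO 2, 3 of 6749 other tested genes of at least 30 CPM had a higher log2 fold, while in cKO 1 it was 842 of them. Over both libraries edgeR gave a log2 fold of 0.55 (SE 0.32, unadjusted p = 0.146). With a 99% interval the ratio in cKO 1 no longer left out 1.

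Btg2 (ENSMUSG00000020423, chromosome 1, 134075170 to 134079120, minus strand), also called Tis21, encodes an antiproliferative protein and marks progenitors that divide to produce neurons. Its levels were 72.5 and 68.2 CPM in cKO 1 and cKO 2, against 71.9 CPM in floxed. The 3 libraries lay close together, with ratios of 1.01 (0.934 to 1.09) and 0.948 (0.877 to 1.03), and edgeR fitted a log2 fold of -0.02 (SE 0.13). Btg2 and Gadd45g are also induced by stress in many cells, and Btg2 by p53. The immediate early and stress list summed to 169 and 178 CPM in the cKO libraries, against 179 CPM in floxed, with 0 of 12 tested genes higher in both beyond counting error, 2 lower (Arc and Npas4), and median log2 folds of -0.03 in cKO 1 and -0.51 in cKO 2. Most of that sum came from Jun and Dusp1, while Egr1 had 7.17 and 2.85 CPM, against 7.01 CPM in floxed, and Klf4 4.92 and 1.67 CPM, against 4.37 CPM in floxed. The p53 target list summed to 290 and 306 CPM, against 275 CPM in floxed, with 1 of 10 higher in both (Trp53inp1), 0 lower, and medians of 0.09 and 0.17. The part of either list in the Gadd45g result was not tested.

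Insm1 (ENSMUSG00000068154, chromosome 2, 146221921 to 146225020, plus strand), a zinc-finger repressor with a single exon that promotes the delamination of intermediate progenitors from the ventricular surface, was lower by a like ratio in both cKO libraries. Its 2819 and 2619 counts in the cKO libraries, against 3562 in floxed, came to 144 and 141 CPM against 199.7 CPM. Both cKO libraries lay well below floxed and close to each other. Its mean over cKO libraries was 143 ± 2.47 CPM (SD, n = 2). The ratio to floxed was 0.723 (0.688 to 0.760) in cKO 1 and 0.706 (0.671 to 0.743) in cKO 2. The fitted log2 fold was -0.47 (SE 0.12, edgeR unadjusted p = 0.0119, adjusted p = 1). Of 6749 other tested genes of at least 30 CPM, 28 were lower by at least its smaller difference in both cKO libraries. In the authors' deposited table the log2 folds were -0.47 and -0.50, with adjusted p-values of 1.02e-35 and 3.06e-40, each from 1 library against 1 library and so a comparison of libraries. The authors' deposited table did not mark Insm1 as significant in either comparison, by a rule that the sources used here do not state.

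Eomes (ENSMUSG00000032446, chromosome 9, 118478212 to 118486132, plus strand) encodes the T-box factor also known as Tbr2, the defining gene of cortical intermediate progenitors. It had 132 and 133 CPM in cKO 1 and cKO 2, against 160.2 CPM in floxed. The pattern was that of Insm1 with a smaller distance: both cKO libraries were below floxed, with ratios of 0.821 (0.778 to 0.866) and 0.832 (0.788 to 0.878), and they differed from each other by less than counting error. Averaged over the cKO libraries it had 132 ± 1.22 CPM (SD, n = 2). The fitted log2 fold was -0.26 (SE 0.12, edgeR unadjusted p = 0.0915). An antisense gene covers 2.84% of its exon bases, and the kit does not mark strand.

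Rgs16 (ENSMUSG00000026475, chromosome 1, 153740349 to 153745468, plus strand) encodes a protein that speeds the shut-off of heterotrimeric G proteins. Its levels were 25.2 and 29.0 CPM in cKO 1 and cKO 2, against 35.5 CPM in floxed. Floxed was the highest library, and the ratio was 0.709 (0.629 to 0.799) in cKO 1 and 0.818 (0.728 to 0.919) in cKO 2, with a fitted log2 fold of -0.37 (SE 0.18). An antisense gene covers 10.1% of its exon bases. Sstr2 (ENSMUSG00000047904, chromosome 11, 113619342 to 113626028, plus strand), a somatostatin receptor that couples to inhibitory G proteins, had 76.7 and 84.1 CPM in the cKO libraries, against 92.0 CPM in floxed. It was the weakest of the genes lower in both, with ratios of 0.834 (0.777 to 0.895) and 0.914 (0.852 to 0.980) and a fitted log2 fold of -0.18 (SE 0.15). With TMM or DESeq2 scaling, or with a 99% interval, Sstr2 in cKO 2 was within counting error.

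Nhlh1 (ENSMUSG00000051251, chromosome 1, 172052292 to 172057573, minus strand) encodes a bHLH factor, also called Hen1, of cells that have just left the cycle. It had 45.3 and 59.5 CPM in cKO 1 and cKO 2, against 38.9 CPM in floxed. Both cKO libraries lay above floxed, cKO 2 the further one, with ratios of 1.16 (1.05 to 1.29) and 1.53 (1.39 to 1.69) and a fitted log2 fold of 0.45 (SE 0.22, edgeR unadjusted p = 0.103). In cKO 2, 12 of 6749 other tested genes of at least 30 CPM had a higher log2 fold. Its paralog Nhlh2 had the same order, with 34.2 and 43.9 CPM against 26.7 CPM in floxed. Nhlh2 also marks Cajal-Retzius cells, and that list of 8 genes summed to 353 and 412 CPM in cKO 1 and cKO 2, against 346 CPM in floxed. Within it Lhx1 (5.74 and 6.03 CPM against 3.81 CPM) and Ebf2 (1.95 and 3.07 CPM against 1.07 CPM) were also higher in both beyond counting error. The part of Cajal-Retzius cells in the Nhlh1 result was not tested.

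Neurod1 (ENSMUSG00000034701, chromosome 2, 79452521 to 79456751, minus strand), a bHLH factor that follows Eomes in the cascade and drives neuronal differentiation, had 72.2 and 70.6 CPM in cKO 1 and cKO 2, against 55.1 CPM in floxed. Both cKO libraries were above floxed and within counting error of each other. Averaged, they had 71.4 ± 1.16 CPM (SD, n = 2), and the ratios were 1.31 (1.21 to 1.42) and 1.28 (1.18 to 1.39). For Neurod1 edgeR fitted a log2 fold of 0.39 (SE 0.13, unadjusted p = 0.0316, adjusted p = 1). Of 6749 other tested genes of at least 30 CPM, 27 were higher by at least its smaller difference in both cKO libraries. Other genes overlap 13.01% of its exon bases. One of them, Cerkl, had 0 and 1 counts in cKO 1 and cKO 2, against 5 in floxed.

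**Figure D2:**
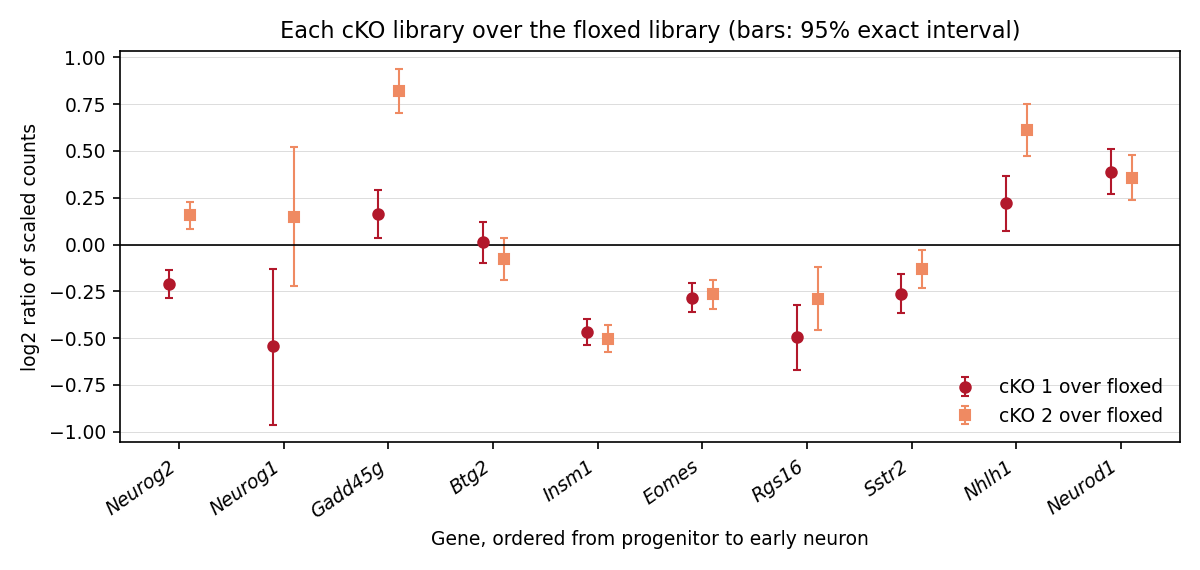
Log2 ratio of scaled counts of cKO 1 and of cKO 2 over floxed, with 95% exact intervals for counting error, in the same gene order. Insm1, Eomes, Rgs16 and Sstr2 lie below 0 in both libraries, and Gadd45g, Nhlh1 and Neurod1 above 0 in both. The neurogenins lie on opposite sides, with the Neurog1 interval in cKO 2 including 0.

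The cKO libraries differed from each other beyond counting error in 6 of 10 members, and in each of the 6 (Neurog2, Neurog1, Gadd45g, Rgs16, Sstr2 and Nhlh1) cKO 2 was the higher one. Among all genes tested 44.3% differed in this way, and 57.8% of those of at least 30 CPM, so the share itself was near the background. These shares hold differences in either direction. The share of all genes with cKO 2 the higher one was not counted, so the direction is a description only. The other 4, Btg2, Insm1, Eomes and Neurod1, had ratios of cKO 2 over cKO 1 between 0.941 and 1.01. Summed over the 10 genes, the level was 771 CPM in cKO 1 and 865 CPM in cKO 2, against 875 CPM in floxed. The median log2 ratio of the members was -0.24 in cKO 1 and 0.04 in cKO 2, where the median log2 fold of all genes tested was 0.01 and -0.04.

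Ratios between members inside a library do not depend on the scaling. The number of Neurod1 counts per Insm1 count was 0.500 in cKO 1 (exact interval 0.469 to 0.533) and 0.501 in cKO 2 (0.468 to 0.535), against 0.276 in floxed (0.257 to 0.296). Per Eomes count it was 0.549 and 0.529, against 0.344 in floxed. Both ratios set floxed apart from the cKO libraries, which had overlapping intervals. Neurod1 was already called higher, and Insm1 and Eomes lower, in both cKO libraries. These ratios therefore restate those calls and add no support. Insm1 per Eomes count was 1.10 (1.04 to 1.16) and 1.06 (1.001 to 1.12) in cKO 1 and cKO 2, against 1.25 (1.19 to 1.31) in floxed, so Insm1 was lower than floxed by more than Eomes was. Eomes per Neurog2 count was 0.926 (0.877 to 0.978) and 0.727 (0.690 to 0.765), against 0.973 (0.924 to 1.03) in floxed, and cKO 1 overlapped floxed there.

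The late pair (Nhlh1 and Neurod1) was also set against the early pair (Neurog2 and Neurog1). This ratio was 0.802 in cKO 1 (0.759 to 0.848) and 0.682 in cKO 2 (0.648 to 0.719), against 0.549 in floxed (0.517 to 0.583). The cKO libraries were above floxed on the late side, with intervals that did not overlap, and also differed from each other. Nhlh1 and Neurod1 were already called higher in both cKO libraries, so the late side restates those calls and adds no support. The early pair was mostly Neurog2, with 2936 counts in floxed against 116 for Neurog1. The mean log2 ratio of the cKO libraries was 0.43 above that of floxed, with an SD of 0.16 (n = 2). With 2 libraries against 1 an exact test of this value cannot reach 0.05, and none was run. As shares of the 10 genes' counts, Insm1 made up 18.7% and 16.3% in cKO 1 and cKO 2, against 22.8% in floxed, and Neurod1 9.37% and 8.15%, against 6.30% in floxed.

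**Figure D3:**
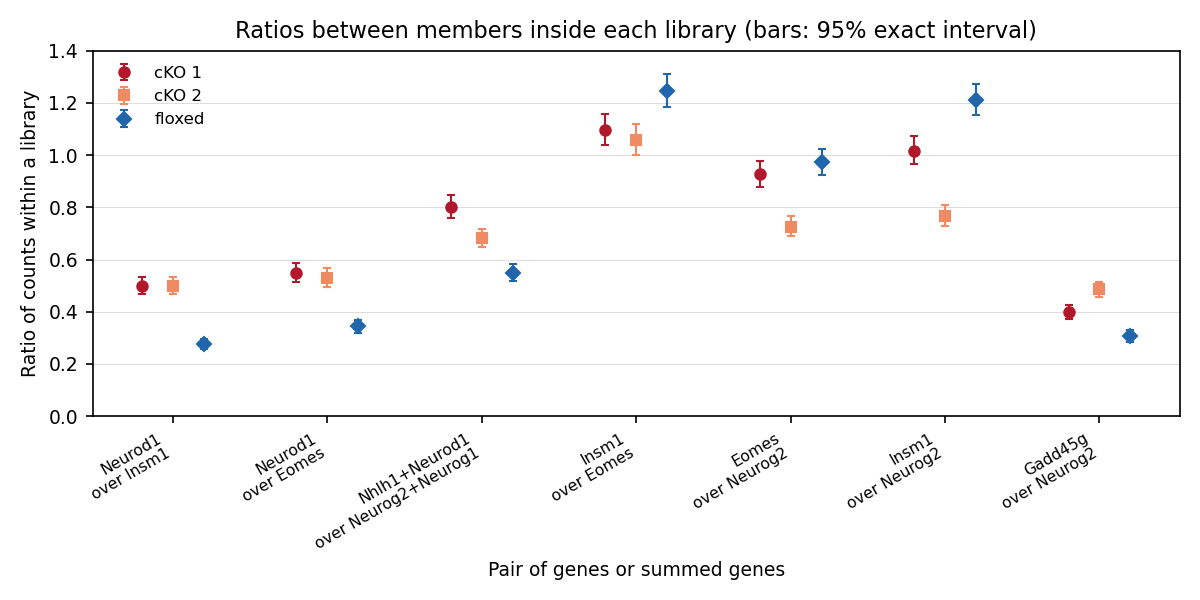
Ratio of counts between members within cKO 1, cKO 2 and floxed, with 95% exact intervals. Neurod1 over Insm1 was 0.500 and 0.501 in the cKO libraries, against 0.276 in floxed, and Neurod1 over Eomes and the late over the early pair were likewise lowest in floxed.

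Levels of different genes were compared per kilobase of exon (RPKM). Neurog2 was first in all libraries, with 63.8 and 82.4 RPKM in cKO 1 and cKO 2, against 73.9 RPKM in floxed. Insm1 had 46.6 and 45.5 RPKM, against 64.4 RPKM in floxed, and Gadd45g 48.1 and 76.0 RPKM, against 43.0 RPKM in floxed. These 2 changed places, Gadd45g being second in both cKO libraries and Insm1 second in floxed. In cKO 1 their levels were close, and whether that order lies beyond counting error was not tested. Sstr2 (35.8 and 39.2 RPKM, against 42.9 RPKM) and Eomes (31.7 and 32.1 RPKM, against 38.6 RPKM) followed the first 3 in every library, with ranges over the libraries that overlapped. Neurod1 (26.5 and 25.9 RPKM, against 20.2 RPKM) and Btg2 (26.4 and 24.9 RPKM, against 26.2 RPKM) also overlapped. Neurod1 was the higher one in cKO 2 and Btg2 in floxed, while in cKO 1 they were nearly equal. Nhlh1 (18.4 and 24.2 RPKM, against 15.8 RPKM), Rgs16 (10.8 and 12.4 RPKM, against 15.2 RPKM) and Neurog1 (2.64 and 4.28 RPKM, against 3.86 RPKM) came last in all 3.

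Other genes of intermediate progenitors and the proneural programme were spread around 0. Of 20 listed and tested, 3 were higher in both cKO libraries beyond counting error (Nhlh2, Rprm and Kif26a) and 3 lower (Lzts1, Cbfa2t2 and Mfap4), 0 passed the edgeR test, and the median log2 folds were 0.02 in cKO 1 and 0.01 in cKO 2. Lzts1, whose product promotes the departure of cells from the ventricular surface, had 107 and 121 CPM in the cKO libraries, against 138 CPM in floxed. Sema3c, a secreted semaphorin, had 28.4 and 28.1 CPM, against 31.9 CPM in floxed. Rprm, a cell cycle arrest gene, had 214 and 313 CPM, against 196 CPM in floxed, and so had the order of Gadd45g and Nhlh1. Cdkn1c, a cyclin-dependent kinase inhibitor, had 97.1 and 65.2 CPM, against 66.8 CPM in floxed.

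Genes that restrain or partner the proneural factors gave few shared differences. Of 11 tested, 0 were higher and 0 lower in both cKO libraries beyond counting error. Log2 folds were above 0 in both for 7, below 0 in both for 0 and on opposite sides for 4. The list medians were 0.15 in cKO 1 and 0.10 in cKO 2. The Notch target Hes1, which represses proneural genes, had 21.0 and 23.6 CPM in cKO 1 and cKO 2, against 18.7 CPM in floxed. Hes5, another Notch target, had 11.9 and 15.6 CPM, against 11.3 CPM in floxed. Id4, which holds E proteins away from DNA, had 85.4 and 73.8 CPM, against 68.8 CPM in floxed. Id3 had 38.4 and 29.7 CPM, against 36.7 CPM in floxed, and was lower in cKO 2 alone beyond counting error. Among 11 Notch ligands, receptors and modulators, 1 was higher in both beyond counting error and 0 lower. That gene, Lfng, encodes a glycosyltransferase that modifies Notch and had 44.4 and 54.6 CPM, against 36.7 CPM in floxed. The ligand Dll3 had 16.1 and 16.6 CPM, against 14.9 CPM in floxed, within counting error in both. Over this Notch list, log2 folds were above 0 in both for 3, below 0 in both for 4 and on opposite sides for 4. The list medians were 0.04 in cKO 1 and -0.11 in cKO 2. The ligand Jag2 had 55.9 and 59.7 CPM, against 64.5 CPM in floxed, lower in cKO 1 alone beyond counting error. Jag1 had 13.9 and 7.91 CPM, against 14.3 CPM in floxed, and Dlk1 33.8 and 22.3 CPM, against 28.5 CPM in floxed.

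The stages on either side were also read. Of 14 radial glia genes 7 were higher in both cKO libraries beyond counting error and 0 lower, with median log2 folds of 0.33 and 0.13, and 0 passed the edgeR test. Log2 folds in this list were above 0 in both for 9 and below 0 in both for 2 (Lhx2 and Pax6). They were on opposite sides for 3 (Sox2, Prom1 and Ednrb). The intermediate filament gene Vim had 858 and 874 CPM in cKO 1 and cKO 2, against 572 CPM in floxed, and the lipid-binding protein gene Fabp7 had 661 and 679 CPM, against 477 CPM in floxed. Of 12 proliferation genes 2 were higher in both (Mcm2 and Ccnb1) and 0 lower, with medians of 0.11 and 0.02. Of 14 genes of newborn and migrating neurons 2 were higher in both (Rnd2 and Nnat) and 5 lower, with medians of 0.00 and -0.03. Unc5d, a netrin receptor of multipolar upper-layer neurons, had 28.7 and 29.5 CPM, against 47.5 CPM in floxed, a lower ratio than that of any member in both libraries. Sox4, a transcription factor of intermediate progenitors and young neurons, had 74.4 and 77.0 CPM, against 92.9 CPM in floxed. The other 3 lower in both were Nrp1, Dcx and Neurod2.

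Several members are also transcribed in progenitors of the ventral telencephalon, where interneurons arise. Those 12 genes summed to 633 and 628 CPM in cKO 1 and cKO 2, against 712 CPM in floxed, with 1 higher in both beyond counting error (Sp8) and 2 lower. The lower ones were Lhx6, with 56.1 and 62.9 CPM against 82.9 CPM in floxed, and Dlx1, with 204 and 193 CPM against 232 CPM in floxed. Their part in the lower Insm1 was not tested. Lists of other cells were read as well. On opposite sides of floxed in cKO 1 and cKO 2 were 10 of 10 tested meningeal and fibroblast genes and 8 of 10 endothelial genes. So were 7 of 7 pericyte and smooth muscle genes and 7 of 8 microglia and macrophage genes. Among choroid plexus and hem genes it was 5 of 8, and among erythroid genes 1 of 7. Of the erythroid genes 2 were higher (Hbb-y and Hbb-bt) and 2 lower (Alas2 and Hba-a1) in both cKO libraries beyond counting error, and of the choroid plexus and hem genes 1 was higher (Rspo3) and 1 lower (Ttr). The part of these cells in the members' values was not tested.

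Genes most like Eomes and Neurod1 were sought among 10151 tested genes of at least 10 CPM on average, by the Euclidean distance between the log2 folds in cKO 1 and cKO 2, over 3 libraries. Nearest to Eomes were Mapt, Gltscr1 and Nrp2, at distances of 0.00 to 0.01, and 236 genes lay within 0.1. Nearest to Neurod1 were Slc35f1, Hs2st1 and Bbx, at 0.01 to 0.02, with 77 genes within 0.1. With 3 libraries many genes share a pattern.

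**Figure D4:**
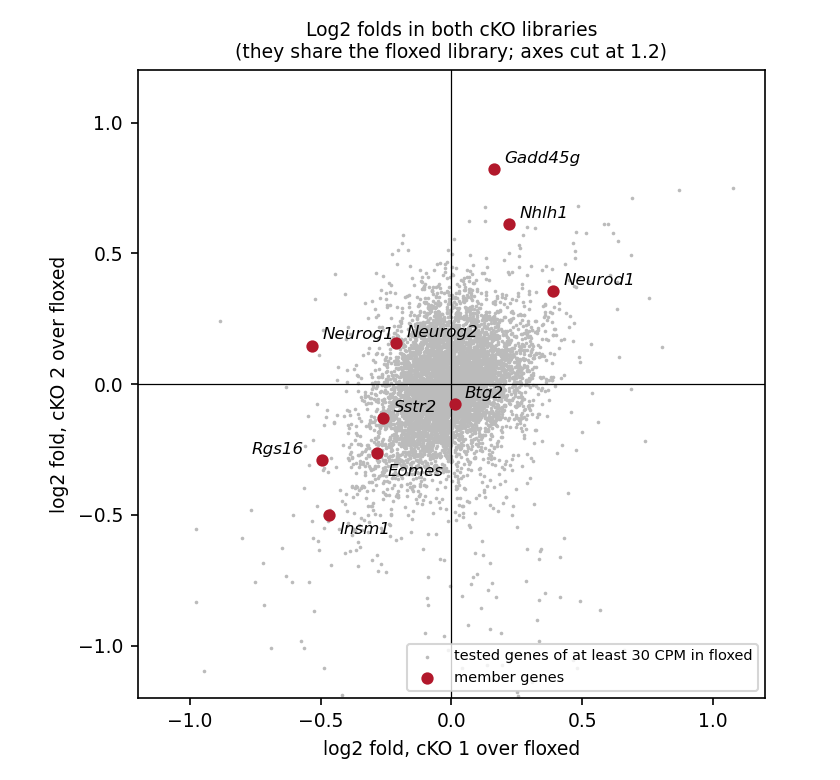
Log2 fold over floxed in cKO 1 (horizontal) and cKO 2 (vertical) for the members (red, named) and for tested genes of at least 30 CPM in floxed (grey), of which 42 of 6750 lie outside the axes. Insm1 and Eomes lie near the diagonal below 0 and Neurod1 near it above 0, while Gadd45g and Nhlh1 lie higher in cKO 2. The axes share the floxed library.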

How the data were processed

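Bulk RNA libraries were made with the TruSeq RNA kit from 2 µg of total RNA, per the labels' protocols. The kit does not mark strand. The authors deposited raw counts per gene and, beside them, CPM values, the fold ratio of these, its log2 value and p-values with adjusted p-values, per the file headers. The submitters' processing notes list the build mm9, the aligners TopHat2 2.0.12 and Bowtie2 2.2.3, and the counter HTSeq 0.6.0. The sources used here do not give the counting options. Positions in the tables match GENCODE M21 (GRCm38): 19896 of 19920 genes with the same ID overlapped, so coordinates are called GRCm38.

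Counts of the 19968 genes in both tables were used. The floxed counts were identical in both for all of them and were used once. CPM were scaled to column totals, which fall short of the totals implied by the authors' CPM by 0.0113% to 0.0169%. Depth sets a limit of 0.154, 0.161 and 0.168 CPM for a count of 0 (3 counts) in cKO 1, cKO 2 and floxed. Log2 folds of list genes had a prior count of 2. The 2 cKO libraries were compared with the floxed one by edgeR 4.0.16 in R 4.3.3 (filterByExpr with a minimum count of 10, TMM, quasi-likelihood test, Benjamini-Hochberg adjustment over 16725 genes, threshold 0.05). The SE is the log2 fold divided by the square root of F. DESeq2 1.42.0, limma 3.58.1 (voom), other scalings, filters and intervals, and leaving out each cKO library were tried as alternatives. The edgeR script was tested on simulated data. Since nothing says that libraries are separate animals, p-values reflect only how far these libraries differ, which may be a technical spread.

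All members are named. From other lists the text names up to 3 genes furthest from floxed on the same side in both cKO libraries and 2 that differ most between these libraries, and otherwise the genes behind a small count or named after their values were seen. The members and lists were chosen with earlier results of these data known.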

Additional observations from a re-analysis of the deposited data

How the results depend on the processing

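The 0 member genes past the adjusted threshold stayed 0 with total counts, DESeq2, limma-voom, no count filter and a minimum of 1 CPM. Over all genes the count of 0 became 1 with total counts in edgeR and 5 with DESeq2, and the 217 genes at an unadjusted p under 0.05 became 380 without a count filter and 98 with DESeq2. The fitted log2 fold of Neurog2, 0.00 with TMM, was -0.017 with total counts and -0.011 with limma-voom, and the other 9 members kept their direction in these fits. Members higher in both cKO libraries numbered 2 to 3, and members lower in both 3 to 4, over the scalings and the 99% interval. Read from 1 cKO library alone they numbered 3 to 4 and 4 to 6, the added genes being Neurog2 (higher) without cKO 1 and Neurog2 and Neurog1 (lower) without cKO 2. The log2 ratio of late to early members, 0.43 above floxed, was 0.66 with Eomes and Insm1 added to the early genes. Both were already called lower in both cKO libraries, so this rise was fixed in advance and is no check. With 1 cKO library left out the value was 0.31 to 0.55. No paired analysis was possible because only 1 floxed library was used and nothing says that equal numbers in the names mark pairs.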

Other observations

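Of 17 paralogs of the members tested, 2 were higher in both cKO libraries beyond counting error (Btg1 and Nhlh2) and 2 lower (Rgs8 and Neurod2), with median log2 folds of 0.18 in cKO 1 and -0.06 in cKO 2. Rgs8, of the same family of G protein regulators as Rgs16 and also on chromosome 1, had 42.6 and 40.1 CPM in cKO 1 and cKO 2, against 60.8 CPM in floxed, and so was lower as Rgs16 was (edgeR log2 fold -0.54, SE 0.13, unadjusted p = 0.00892, adjusted p = 1). Rgs2 (27.8 and 27.6 CPM, against 29.3 CPM in floxed) and Rgs4 (43.1 and 40.8 CPM, against 43.3 CPM in floxed) are also on chromosome 1. Both were within counting error in both cKO libraries. Insm2 had 3.02 and 4.47 CPM, against 2.13 CPM in floxed, the opposite side of floxed from Insm1. Btg1, named after its values were seen, had 174 and 190 CPM, against 142 CPM in floxed, where Btg2 was within counting error. Rgs5, a pericyte gene, had 88.2 and 46.6 CPM, against 72.1 CPM in floxed, the order of the vascular lists.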
